A study of Mus musculus with 14 samples.

Results

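The genes described here are 42 mouse genes that type I interferon is known to switch on, followed through 14 melanoma tumours with and without a BRAF inhibitor. They were chosen by name from a list of interferon-stimulated genes, and all 42 were among the 18481 genes of the expression table and among the 15841 that were tested. Female C57BL/6J mice aged 6 to 8 weeks received 2 subcutaneous injections each of SMM102, a murine melanoma line, and RNA of the whole tumours was sequenced. Dosing began when a tumour measured 150 to 300 mm3. PLX4032 (vemurafenib, a BRAF kinase inhibitor) was injected intraperitoneally at 50 mg/kg, 5 times a week. The treated groups held 2 tumours each for days 3, 6 and 18, and 4 tumours for day 27. The control tumours of day 3 (n = 2) and day 6 (n = 2) are untreated by their sample labels and vehicle-treated by the design text. There are no controls of days 18 and 27, so treatment and time cannot be told apart on those days. The 4 tumours of day 27 are the left and right tumours of 2 mice that the columns do not identify, so p-values that involve day 27 are too small. All tests share 1 estimate of spread with 8 residual degrees of freedom, of which day 27 gives 3. The p-values of the other days may therefore be too small as well. Tumour numbers below only name the tumours of a group.

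Type I interferons (interferon-alpha and interferon-beta) are secreted by cells that sense foreign or misplaced nucleic acid. They bind the receptor pair Ifnar1 and Ifnar2, which activates the kinases Jak1 and Tyk2, and these phosphorylate STAT proteins, Stat2 among them. Together with Irf9 the phosphorylated STAT proteins form the complex ISGF3, which binds a GAAA-rich element in the promoters of interferon-stimulated genes. In tumours both the cancer cells and the infiltrating immune cells can respond, and many of the same genes also answer to interferon-gamma, the product of T cells and natural killer cells.

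The values are the authors' deposited expression signal per gene, named TPM in the table, a scale that corrects for transcript length. The 14 columns summed to between 879385 and 1084401, so they had been rescaled, and read depth is unknown. Of the melanocyte markers, Mitf lay between 1.56 and 10.4, Sox10 reached at most 2.25, Pmel 1.05 and S100b 0.892. Mlana, Dct, Tyr and Tyrp1 were not found in the expression table, so their levels are unknown. Apart from Mitf, the melanocyte markers measured were low, at most 2.25. By the test described below, 2 of the 3 tested were called higher at day 3 (24.9% of all genes). Called higher at day 27 was 1 (3.58% of all genes), and 0 at days 6 and 18. In bulk tumours fewer cells of a type and less RNA per cell cannot be told apart.

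All 42 interferon-stimulated genes were higher in the treated tumours of day 3 than in the controls, and 36 were higher at day 6. At day 18 there were 4 that passed the test, and at day 27 there were 0. These are changes in log2(signal + 1) from limma, called at a Benjamini-Hochberg adjusted p under 0.05 over the 15841 genes. For comparison, 24.9% of all genes tested were called higher at day 3, 4.49% at day 6, 5.42% at day 18 and 3.58% at day 27. Called lower were 20.8%, 1.43%, 2.5% and 3.09% of all genes on these days, and 0 of the 42. The median change of the 42 genes was 2.27 at day 3, 2.46 at day 6, 1.34 at day 18 and 0.64 at day 27, beside medians over all genes of 0.02, 0.01, 0.07 and 0.01. With each tumour left out in turn the member median ran from 1.85 to 2.79 at day 3, 1.66 to 3.19 at day 6, 0.80 to 1.94 at day 18 and 0.28 to 1.00 at day 27. It moved by over 1.5 times at day 18 without day 18 tumour 1 (0.80), and at day 27 without control day 3 tumour 1 (1.00), control day 3 tumour 2 (0.28) or control day 6 tumour 2 (0.36). None of the 42 was at 0 in any tumour. Their values ran from 1.64 (*Mx2*, control day 3 tumour 2) to 1890 (*Bst2*, day 6 tumour 2).

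**Figure D1:**
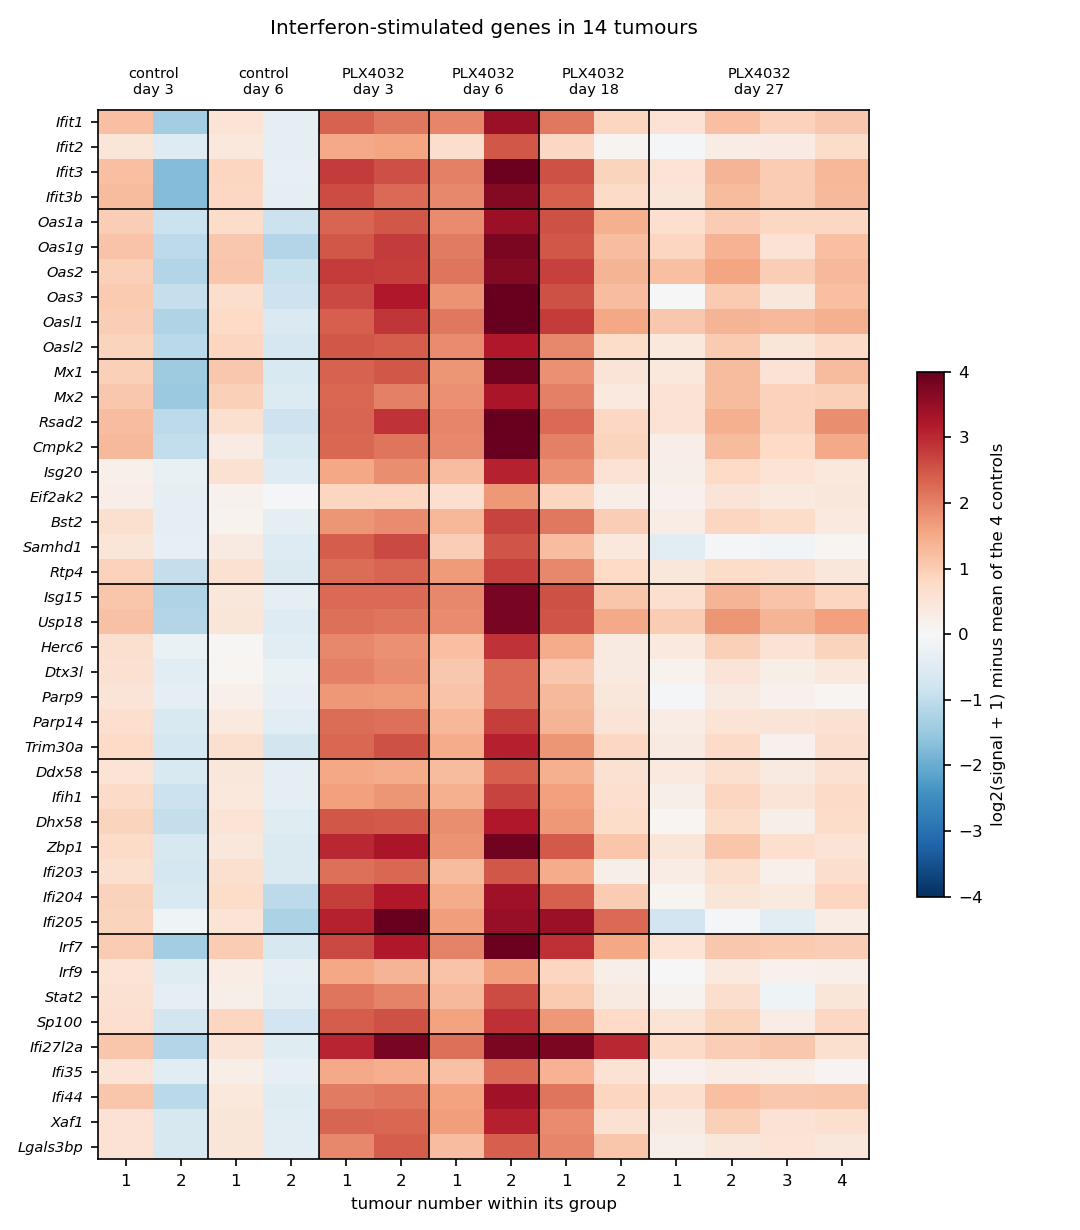
Each row is 1 of the 42 interferon-stimulated genes, grouped by role, and each column 1 of the 14 tumours. The colour is log2(signal + 1) minus the mean of the 4 controls, with blue below the controls and red above them. The 2 tumours of day 3 look alike, tumour 2 of day 6 is the darkest column for 38 genes, and the 4 columns of day 27 are pale.

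The genes varied together from tumour to tumour. Within the controls all 42 were higher in tumour 1 than in tumour 2 on day 3, and all 42 were higher in tumour 1 than in tumour 2 on day 6. Under treatment all 42 were higher in tumour 2 than in tumour 1 of day 6 and in tumour 1 than in tumour 2 of day 18. The highest value of all 14 tumours was in day 6 tumour 2 for 38 genes and in day 3 tumour 2 for the other 4, *Samhd1*, *Ifi205*, *Ifi27l2a* and *Lgals3bp*. The lowest was in control day 3 tumour 2 for 32 genes and in control day 6 tumour 2 for 10.

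The spread between tumours of 1 group differed by group. The median ratio of highest to lowest tumour was 3.81 over the 4 controls (range over genes 1.61 to 10.6), 1.10 at day 3 (1.01 to 1.91), 2.92 at day 6 (1.46 to 5.91), 2.27 at day 18 (1.53 to 3.32) and 1.53 at day 27 (1.14 to 2.64). For 38 genes both day 3 tumours lay between the 2 tumours of day 6.

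The element that ISGF3 is known to bind was looked for in the promoters, from 250 bases before to 50 bases after the transcription start in RefSeq (build GRCm38.p6). Promoters were matched by symbol for 31 of the 42 genes. The letters GAAA, any 2 bases and GAAA again, on either strand and with overlapping matches allowed, were present for 16 of the 31 genes (51.6%), against 3.99% of the 27025 genes with a promoter in the table. The letters TTC, any 3 bases and GAA, the core that STAT dimers are known to bind, were present for 7 of the 31 (22.6%), against 9.55% of all genes. A match describes the letters only. The promoters that follow are those of *Isg15*, *Ifit1* and *Bst2*, which are described with their values in every tumour and hold several matches each. *Ifit3*, *Oas1a* and *Ifi205* are also described so and hold 2 matches each, but are not printed in full. Matches are in capitals, in the direction of the gene. In *Ifit1* the capitals read as the reverse complement of the searched letters, because the match is on the opposite strand.
Isg15, minus strand, chr4:156200769-156201068: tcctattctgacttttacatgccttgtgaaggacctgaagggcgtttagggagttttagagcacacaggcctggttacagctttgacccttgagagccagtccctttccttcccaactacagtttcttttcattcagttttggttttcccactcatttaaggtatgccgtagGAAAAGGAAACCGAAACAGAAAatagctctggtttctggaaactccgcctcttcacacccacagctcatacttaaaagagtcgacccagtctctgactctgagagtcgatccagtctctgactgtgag
Ifit1, plus strand, chr19:34640639-34640938: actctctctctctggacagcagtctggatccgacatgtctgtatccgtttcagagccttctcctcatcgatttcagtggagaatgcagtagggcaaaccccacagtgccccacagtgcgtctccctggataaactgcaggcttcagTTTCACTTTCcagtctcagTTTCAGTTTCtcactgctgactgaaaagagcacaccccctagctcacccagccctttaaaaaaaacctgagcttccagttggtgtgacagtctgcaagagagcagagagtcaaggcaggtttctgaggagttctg
Bst2, minus strand, chr8:71537423-71537722: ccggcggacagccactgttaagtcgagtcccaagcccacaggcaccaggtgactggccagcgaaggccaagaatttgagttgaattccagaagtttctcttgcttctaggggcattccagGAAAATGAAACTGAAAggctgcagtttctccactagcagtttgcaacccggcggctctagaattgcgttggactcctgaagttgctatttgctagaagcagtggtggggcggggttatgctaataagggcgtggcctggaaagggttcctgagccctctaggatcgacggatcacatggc

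In the *Isg15* promoter 3 overlapping matches make 1 run, from position -78 to -57, where negative positions lie before the start site. In *Bst2* 2 overlapping matches run from -130 to -115. *Ifit1* has 2 separate matches, at -104 to -95 and at -85 to -76. The same letters in other members are given next with 8 bases on either side, read on the strand that carries the match, to compare the flanking bases.
Ifit3, minus strand, chr19:34583365-34583390: cagaagagGAAAGTGAAActtaccac
Ifit3b, minus strand, chr19:34607761-34607786: cagaagagGAAAGTGAAActtaccac
Oas1a, minus strand, chr5:120907522-120907553: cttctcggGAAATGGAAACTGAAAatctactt
Oas1g, minus strand, chr5:120887608-120887639: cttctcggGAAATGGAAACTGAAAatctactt
Oas3, minus strand, chr5:120777717-120777742: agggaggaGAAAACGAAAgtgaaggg
Rsad2, plus strand, chr12:26456555-26456580: tgttttctGAAAATGAAAgttggacc
Stat2, minus strand, chr10:128270268-128270293: agggaaagGAAACTGAAAccagggtg
Ifi203, minus strand, chr1:173942510-173942535: gagctgggGAAATCGAAAgctatgaa
Ifi205, minus strand, chr1:174031872-174031897: aggccaggGAAATTGAAAgctatgaa
Ddx58, plus strand, chr4:40239806-40239831: ggccatagGAAATCGAAActgcctca
Ifih1, minus strand, chr2:62646206-62646231: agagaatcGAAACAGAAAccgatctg
Eif2ak2, minus strand, chr17:78882537-78882562: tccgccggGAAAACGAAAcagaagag

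The windows of *Ifit3* and *Ifit3b* are identical, and so are those of *Oas1a* and *Oas1g*, neighbouring genes on chromosomes 19 and 5. The match lies before the start site in *Oas3* (-75 to -66), *Rsad2* (-120 to -111), *Stat2* (-222 to -213) and *Ifi203* (-35 to -26). It lies after the start in *Ddx58* (2 to 11), *Ifih1* (32 to 41) and *Eif2ak2* (18 to 27). The median change at day 3 was 2.34 for the 16 genes with a match and 2.17 for the 15 without, and the range was 0.87 to 3.53 with a match and 1.45 to 2.91 without.

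**Figure D2:**
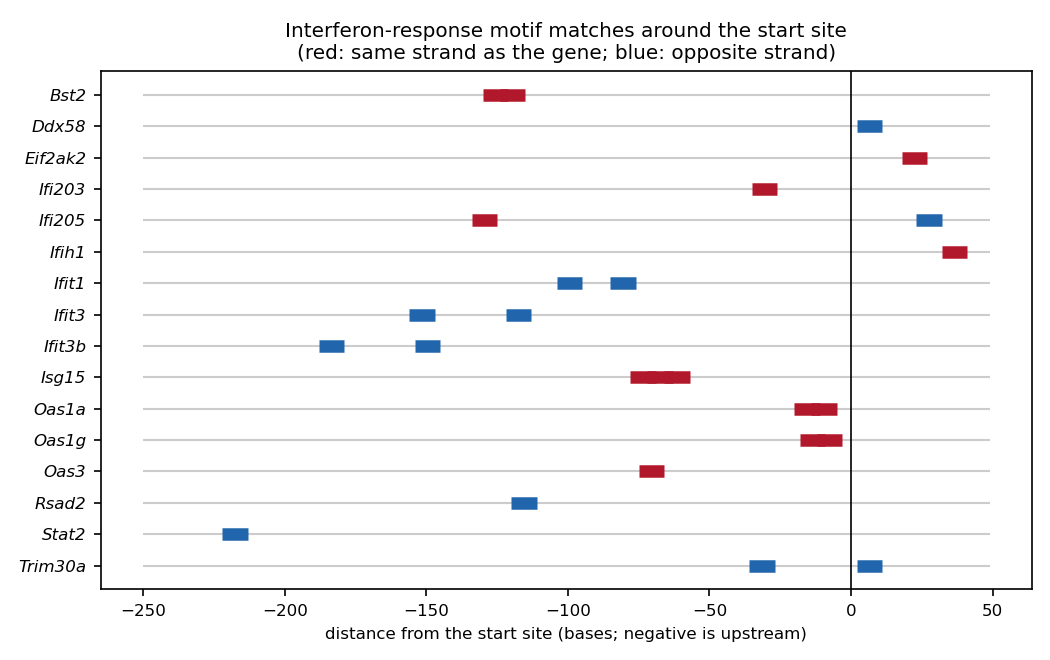
Positions of the GAAA pair, 2 bases apart, in the promoters of 16 interferon-stimulated genes, as the distance in bases from the transcription start (0). Red boxes are on the strand of the gene and blue boxes on the opposite strand. The boxes of *Ddx58*, *Ifih1* and *Eif2ak2* lie after the start, as does 1 box each of *Ifi205* and *Trim30a*, and all others before it.

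The IFIT genes encode proteins that bind foreign RNA and block its translation. The 4 genes lie together on chromosome 19, from *Ifit2* at chr19:34550694-34576419 to *Ifit1* at chr19:34640871-34650009 (GENCODE M21 on GRCm38, the assembly also called mm10). For *Ifit1* the values were 47.5, 6.96, 29.6 and 14.9 in the 4 controls, in the order used throughout (day 3 tumours 1 and 2, then day 6 tumours 1 and 2). The treated tumours had *Ifit1* at 105 and 89.1 on day 3, 78.9 and 225 on day 6, 88.1 and 36.8 on day 18, and 30.2, 46.9, 38.8 and 43.0 on day 27. Both tumours of day 3 lay above every control, as did both of day 6, and 1 of the 2 tumours of day 18. The change of *Ifit1* was 2.23 at day 3 (SE 0.65, adjusted p = 0.017), 2.69 at day 6 (adjusted p = 0.04), 1.48 at day 18 (adjusted p = 0.16) and 0.95 at day 27 (adjusted p = 0.34). *Ifit3* was at 122, 15.0, 96.1 and 41.8 in the controls, 372 and 318 in the treated tumours of day 3, 214 and 818 at day 6, 313 and 98.1 at day 18, and 77.5, 135, 108 and 133 at day 27. All 4 values of day 27 for *Ifit1* lay inside the range of the controls, and 2 of the 4 for *Ifit3*. *Ifit3*, whose human counterpart is known to stabilise IFIT1, changed by 2.69 at day 3 (adjusted p = 0.017) and by 2.97 at day 6, where it missed the threshold (SE 0.78, adjusted p = 0.051). *Ifit2* and *Ifit3b* had changes of 1.54 and 2.43 at day 3, and both passed. At day 6 *Ifit1* was the 1 of 4 IFIT genes called. Of the 31-base stretches of *Ifit3* transcripts, 61.8% also occur in other genes, all of them in *Ifit3b*, so how signal was divided between these neighbours is uncertain.

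The OAS family senses double-stranded RNA, and most of its members make the messenger that activates RNase L. The 6 genes lie on chromosome 5, with *Oas1a* at chr5:120896256-120907521 and *Oas1g* beside it at chr5:120876142-120887613. *Oasl2* was at 126 and 31.6 in the controls of day 3, 122 and 41.9 in the controls of day 6, 381 and 369 under PLX4032 at day 3, 252 and 625 at day 6, 258 and 113 at day 18, and 90.6, 139.8, 95.6 and 115 at day 27. *Oas1a* was at 44.7, 11.8, 37.1 and 11.7 in the controls, 115 and 129 in the treated tumours of day 3, 83.8 and 246 at day 6, 133 and 60.5 at day 18, and 35.5, 46.0, 40.0 and 40.4 at day 27. Every treated tumour of days 3 and 6 lay above all 4 controls for both genes, and at day 18 tumour 1 did for both and tumour 2 for *Oas1a*. *Oasl2*, a member with ubiquitin-like domains, changed by 2.46 at day 3 (SE 0.59, adjusted p = 0.0062) and 2.54 at day 6 (adjusted p = 0.037). *Oas1a* changed by 2.41 at day 3 (adjusted p = 0.0066) and by 2.65 at day 6 (adjusted p = 0.036). All 6 OAS genes were called at days 3 and 6, with changes of 2.41 to 2.94 and 2.54 to 3.11. *Oasl1*, known in mice to hold back translation of *Irf7*, had the largest day 6 change of the 42 genes (3.11, adjusted p = 0.034). At day 18 the 6 genes had changes of 1.32 to 2.17, and 0 were called, with adjusted p from 0.063 to 0.17. *Oas1a* and *Oas1g* share 68.7% of the stretches of *Oas1a*, so their separate levels are uncertain. *Oas2* and *Oas3* complete the family.

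**Figure D3:**
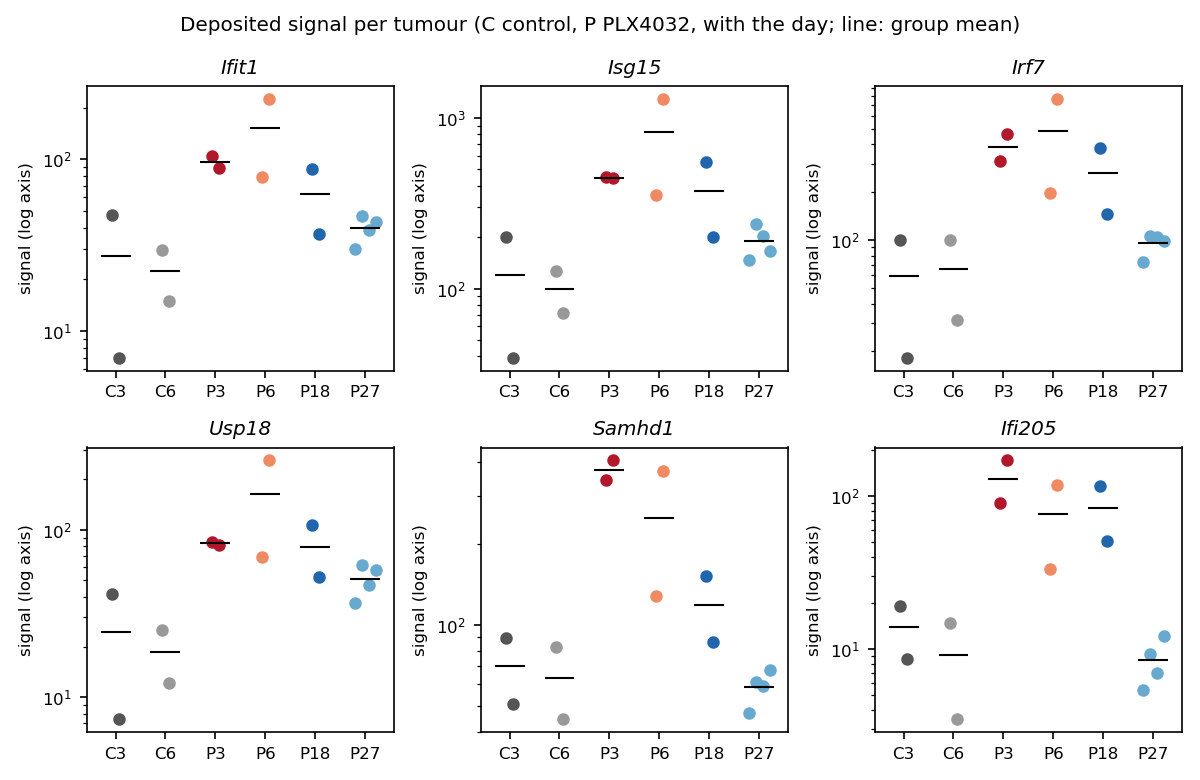
Deposited signal (log axis) of 6 interferon-stimulated genes in the 14 tumours, by group (C control, P PLX4032, with the day). Points are tumours and lines are group means. *Ifi205* and *Samhd1* at day 27 sit inside the control range, and *Ifit1*, *Isg15*, *Irf7* and *Usp18* are highest in day 6 tumour 2.

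Among the other antiviral effectors, *Bst2* encodes tetherin, which holds budding virus on the cell surface. The controls had *Bst2* at 457 and 222 (day 3) and at 319 and 222 (day 6). Under PLX4032 *Bst2* was at 997 and 1086 on day 3, 729.9 and 1889.6 on day 6, 1258 and 574 on day 18, and 359.5, 533, 487 and 380.4 on day 27. The 2 tumours of day 18 were both above the highest control, and at day 27 2 of the 4 were. *Bst2* changed by 1.84 at day 3 (SE 0.42, adjusted p = 0.005), 2.01 at day 6 (adjusted p = 0.034) and 1.54 at day 18 (adjusted p = 0.0499). *Samhd1* was at 89.2, 50.6, 82.3 and 44.4 in the controls, 344 and 407 in the treated tumours of day 3, 128 and 371 at day 6, 151 and 86.1 at day 18, and 47.0, 61.1, 59.1 and 67.6 at day 27. *Samhd1* encodes an enzyme that degrades deoxynucleotides. It changed by 2.53 at day 3 (SE 0.41, adjusted p = 0.00081), 1.76 at day 6 (adjusted p = 0.037) and -0.13 at day 27 (adjusted p = 0.88).

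*Mx1* was at 19.0 and 2.88 in the controls of day 3, 21.0 and 5.72 in the controls of day 6, 52.0 and 57.1 under PLX4032 at day 3, 33.9 and 149 at day 6, 35.6 and 13.7 at day 18, and 12.9, 24.0, 14.3 and 23.7 at day 27. *Mx1* encodes an antiviral dynamin-like GTPase that C57BL/6 mice are known to carry in a non-functional form. It changed by 2.42 at day 3 (SE 0.75, adjusted p = 0.022), and the 2.80 of day 6 missed the threshold (adjusted p = 0.052). *Rsad2* was at 12.2, 1.71, 7.85 and 2.17 in the controls, 27.2 and 41.0 in the treated tumours of day 3, 21.0 and 89.8 at day 6, 26.1 and 8.90 at day 18, and 7.39, 14, 9.68 and 19.5 at day 27. *Rsad2*, viperin, makes a chain-terminating nucleotide. Its change was 2.61 at day 3 (adjusted p = 0.016) and 2.99 at day 6 (adjusted p = 0.045), and its neighbour *Cmpk2*, a mitochondrial nucleotide kinase, had 114 in day 6 tumour 2 against 2.75 to 17.3 in the controls. *Eif2ak2*, the kinase PKR that shuts down translation, had the smallest day 3 change of the 42 genes (0.87, adjusted p = 0.026) and the smallest at day 6 (1.21). All 9 genes of the group passed at day 3 and 7 at day 6. The rest of the group are *Mx2*, another Mx gene, *Isg20*, an RNA exonuclease, and *Rtp4*, a receptor transporter known to respond to interferon.

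The next group holds *Isg15*, a ubiquitin-like protein that is attached to others, and the enzymes around it. *Isg15* was at 201 and 39.2 in the controls of day 3, 127 and 71.4 in the controls of day 6, 449 and 444 under PLX4032 at day 3, 354 and 1291 at day 6, 548 and 199.5 at day 18, and 146, 239, 203 and 166 at day 27. The controls averaged 109.6 ± 70.9 (SD, n = 4), and the tumours of day 27 averaged 189 ± 41.0 (SD, n = 4). Day 3 tumours both lay above all controls, and so did both of day 6, but day 18 tumour 2 fell just short of control day 3 tumour 1. *Isg15* changed by 2.26 at day 3 (SE 0.66, adjusted p = 0.017), by 2.86 at day 6 (adjusted p = 0.037) and by 1.83 at day 18 (adjusted p = 0.1). *Usp18* was at 41.6, 7.38, 25.1 and 12.1 in the controls, 84.7 and 81.5 in the treated tumours of day 3, 68.8 and 259.9 at day 6, 107 and 52.0 at day 18, and 36.7, 62.0, 47.0 and 57.6 at day 27. *Usp18* removes Isg15 from proteins and also blocks the interferon receptor. At day 27 it changed by 1.44 by limma (SE 0.53, unadjusted p = 0.02, adjusted p = 0.14), the smallest p of the 42 genes on that day. Of its tumours of day 27, 3 were above every control. The other members are *Herc6*, an Isg15 ligase in mice, *Dtx3l* and *Parp9*, which act as a complex and overlap each other in the genome, *Parp14*, an ADP-ribosyltransferase, and *Trim30a*, a TRIM protein. All 7 were called at days 3 and 6.

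Sensors of nucleic acid came next. *Zbp1* encodes a sensor of Z-form nucleic acid that can start necroptosis. The controls had *Zbp1* at 48.0 and 17.7 (day 3) and at 38.9 and 18.6 (day 6). Under PLX4032 *Zbp1* was at 237 and 279 on day 3, 99.5 and 419 on day 6, 157 and 62.3 on day 18, and 40.0, 62.4, 45.7 and 41.2 on day 27. Its day 3 change was 3.15 (SE 0.58, adjusted p = 0.0015), the third largest of the 42 genes, and its day 6 change 2.82 (adjusted p = 0.034). *Ifi204* was at 37.1, 12.0, 32.4 and 8.55 in the controls, 134 and 181 in the treated tumours of day 3, 55.0 and 208 at day 6, 103 and 39.4 at day 18, and 20.5, 26.8, 25.2 and 35.0 at day 27. *Ifi204* belongs to the Ifi200 family on chromosome 1, and changed by 2.98 at day 3 (adjusted p = 0.0038) and by 2.44 at day 6 (adjusted p = 0.052). *Ifi205* was at 19.2, 8.64, 14.7 and 3.47 in the controls, 89.4 and 171 in the treated tumours of day 3, 33.2 and 119 at day 6, 117 and 50.5 at day 18, and 5.40, 9.30, 6.97 and 12.2 at day 27. *Ifi205*, of the same family, was higher than every control in all 6 tumours of days 3, 6 and 18, and inside the range of the controls in all 4 of day 27. It had the largest day 3 change of the 42 genes (3.53, SE 0.63, adjusted p = 0.0013). The sequences of *Ifi203*, *Ifi204* and *Ifi205* share from 21.9% to 34.6% of their 31-base stretches with other genes, so their levels are uncertain.

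*Ddx58* encodes RIG-I, the sensor of viral RNA ends, and *Ifih1* encodes MDA5, the sensor of long double-stranded RNA. *Ddx58* was at 37.8 and 16.2 in the controls of day 3, 35.1 and 19.2 in the controls of day 6, 75.7 and 73.1 under PLX4032 at day 3, 62.8 and 138 at day 6, 69.0 and 38.9 at day 18, and 33.4, 40.5, 32.8 and 39.5 at day 27. *Ifih1* was at 20.9, 6.05, 16.2 and 9.02 in the controls, 38.5 and 42.2 in the treated tumours of day 3, 33.1 and 81.3 at day 6, 39.0 and 19.4 at day 18, and 14, 22.1, 17.4 and 20.8 at day 27. Both lay above all controls in each tumour of days 3 and 6, in day 18 tumour 1 and, for *Ddx58*, in day 18 tumour 2. At day 3 they changed by 1.51 (SE 0.39, adjusted p = 0.0086) and 1.69 (SE 0.47, adjusted p = 0.014), and at day 6 by 1.83 and 2.05 (adjusted p = 0.034 and 0.037). *Dhx58* encodes LGP2, which modulates both. Of the 7 sensors, 7 were called at day 3 and 6 at day 6.

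The transcription factors include the machinery of the response itself. *Irf7* was at 100.2 and 18.2 in the controls of day 3, 101 and 31.6 in the controls of day 6, 312 and 460.2 under PLX4032 at day 3, 198 and 768 at day 6, 379 and 146 at day 18, and 72.6, 106, 104 and 99.1 at day 27. *Irf7*, the factor that amplifies interferon-alpha production, changed by 2.91 at day 3 (SE 0.72, adjusted p = 0.0074), 2.96 at day 6 (adjusted p = 0.042) and 2.23 at day 18 (adjusted p = 0.08). *Stat2* was at 68.2, 33.2, 52.2 and 32.0 in the controls, 197 and 179 in the treated tumours of day 3, 109 and 273 at day 6, 92.3 and 57.0 at day 18, and 48.3, 73.0, 39.0 and 61.6 at day 27. *Stat2* changed by 2.06 at day 3 (SE 0.41, adjusted p = 0.0022), by 1.95 at day 6 (adjusted p = 0.034) and by 0.70 at day 18 (adjusted p = 0.27). *Sp100* was at 59.4, 21.6, 67.7 and 21.2 in the controls, 202 and 219.8 in the treated tumours of day 3, 116 and 286 at day 6, 127 and 65.1 at day 18, and 54.3, 69.8, 45.7 and 66.8 at day 27. *Sp100*, a component of nuclear bodies, changed by 2.48 at day 3 (adjusted p = 0.0031). *Irf9*, the DNA-binding part of ISGF3, had a change of 1.45 at day 3 and 1.40 at day 6. All 4 passed on both days.

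The remaining genes are known to be induced but have varied roles. *Ifi27l2a* encodes a small membrane protein, and *Lgals3bp* a secreted glycoprotein that binds galectin-3. The controls had *Ifi27l2a* at 139.9 and 28.3 (day 3) and at 93.4 and 45.9 (day 6). Under PLX4032 *Ifi27l2a* was at 539.6 and 913 on day 3, 303 and 883 on day 6, 879 and 527 on day 18, and 109, 127, 138 and 102 on day 27. Both tumours of day 18 were above all controls and inside the range of days 3 and 6. Its change was 3.43 at day 3 (SE 0.59, adjusted p = 0.0011), 2.99 at day 6 (adjusted p = 0.034) and 3.38 at day 18 (adjusted p = 0.0079). *Lgals3bp* was at 188 and 80.3 in the controls of day 3, 174 and 92.1 in the controls of day 6, 474 and 672 under PLX4032 at day 3, 293 and 659 at day 6, 487 and 269 at day 18, and 148, 171, 184 and 173 at day 27. *Lgals3bp* changed by 2.17 at day 3 (adjusted p = 0.0018), by 1.81 at day 6 (adjusted p = 0.037) and by 1.53 at day 18 (adjusted p = 0.047). *Xaf1* was at 73.8, 31.1, 69.5 and 35.9 in the controls, 248 and 246 in the treated tumours of day 3, 157 and 429 at day 6, 184 and 75.6 at day 18, and 62.9, 95.7, 73.1 and 77.2 at day 27. *Xaf1*, a regulator of apoptosis, changed by 2.31 at day 3 (adjusted p = 0.0028) and 2.38 at day 6 (adjusted p = 0.034). *Ifi35* and *Ifi44* complete the group, and all 5 passed on both days.

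At day 3 all 42 genes passed, and none overlapped the controls in either tumour (31.2% of all genes were higher without overlap). Changes ran from 0.87 (*Eif2ak2*) to 3.53 (*Ifi205*). With day 3 tumour 1 or tumour 2 left out, the median change was 2.30 in each case. Fewer genes were then called, among the 42 and among all genes. A fit on the compared groups alone called 31 of the 42, and called 19.5% of all genes higher. The leukocyte markers rose in the same tumours: the 8 markers summed to 2740 and 4024 in the tumours of day 3, against 736 to 1139 in the controls, and 7 of the 8 were called higher. The macrophage and monocyte markers summed to 4291 and 5567 against 401 to 1452. The T cell markers summed to 165 and 283 against 19.3 to 37.3, and 7 of 7 were called higher. Of 5 markers each, 5 were called higher for dendritic cells (54.1 and 57.5 against 3.23 to 13.5) and 5 for endothelium (116 and 174 against 37.5 to 88.5). For fibroblasts 4 of 5 were called higher and 1 lower (3454 and 5211 against 2050.0 to 2556). No marker of these 6 lists was at 0 in any tumour. The part of these markers in the result was not tested.

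Day 6 differed in spread. Of the 42 genes, 36 passed, while the 6 that did not (*Ifit2*, *Ifit3*, *Ifit3b*, *Mx1*, *Mx2* and *Ifi204*) had adjusted p from 0.051 to 0.064. All 42 had an unadjusted p under 0.05 and did not overlap the controls (16.2% of all genes were higher without overlap). Shares of all genes at an unadjusted p under 0.05 are not given here for any comparison. The calls rested on single tumours, among the 42 and among all genes. Nearly all calls, and those of the 42, were lost without day 6 tumour 2 or without tumour 2 of either control day. The median change was then 1.66 without day 6 tumour 2, and 2.03 and 2.13 without tumour 2 of the controls of days 3 and 6. Calls were kept without any 1 of the other 3 tumours, where the median was 2.75 to 3.19. With the controls of day 6 alone, 0 of the 42 were called and 0.0505% of all genes were called higher. The leukocyte markers summed to 1441 in day 6 tumour 1 and 2584 in tumour 2, the macrophage and monocyte markers to 1835 and 3031 and the T cell markers to 83.7 and 261. Called higher at day 6 were 5 of 8 leukocyte, 1 of 8 macrophage and monocyte and 6 of 7 T cell markers. In each case the tumour with the higher interferon-stimulated genes also had the higher marker sum, and the part of these markers was not tested.

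**Figure D4:**
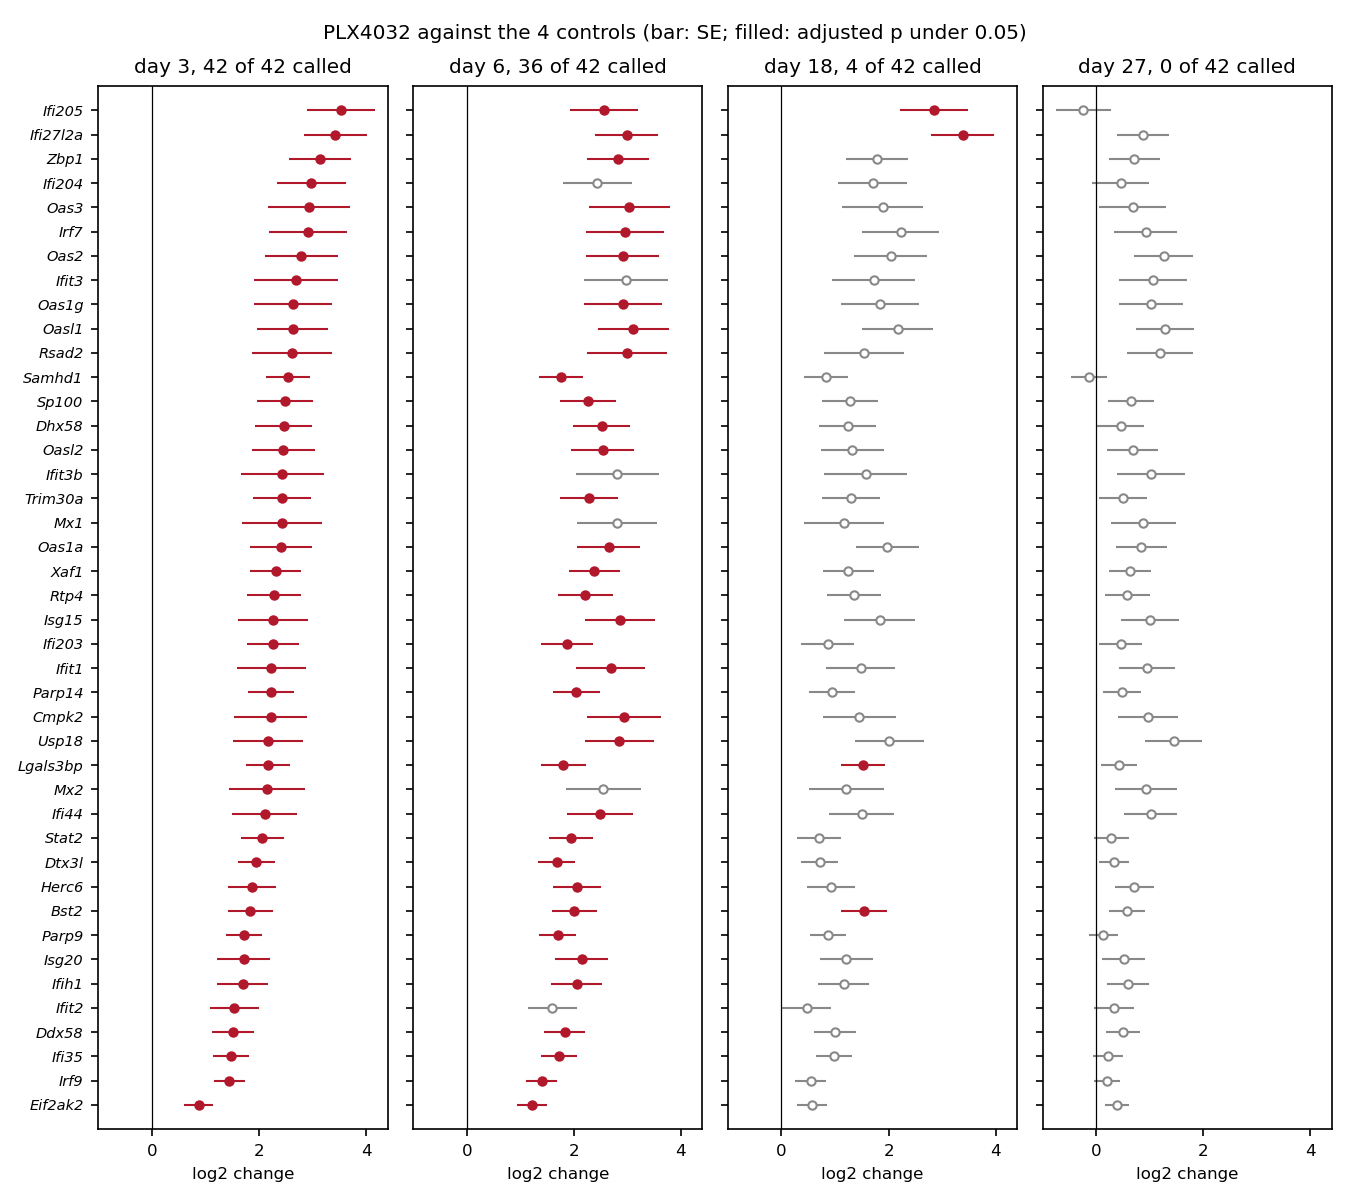
Change in log2(signal + 1) against the 4 controls for the 42 interferon-stimulated genes at each treated day, sorted by the day 3 change. Bars are the SE, and filled points have an adjusted p under 0.05. All 42 points are filled at day 3, 36 at day 6, 4 at day 18 and 0 at day 27.

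At day 18 the 4 genes called were *Ifi27l2a* (3.38), *Ifi205* (2.85, SE 0.63, adjusted p = 0.023), *Bst2* (1.54) and *Lgals3bp* (1.53). There were 27 genes with an unadjusted p under 0.05, and 18 did not overlap the controls (24.9% of all genes were higher without overlap). Day 18 tumour 1 was above all controls for 42 genes and tumour 2 for 18. A fit on the compared groups alone called 0 of the 42, and called 0.877% of all genes higher. With single tumours left out the calls moved, among the 42 and among all genes. The median change was 1.82 and 0.90 without control day 3 tumours 1 and 2, and 1.68 and 1.04 without control day 6 tumours 1 and 2. It was 0.80 and 1.94 without day 18 tumours 1 and 2. *Bst2* and *Lgals3bp* also missed the threshold with a pseudocount of 0.1 (adjusted p = 0.0531 and 0.0504). The macrophage and monocyte markers summed to 2339 in tumour 1 and 1335 in tumour 2, and the T cell markers to 112 and 47.9. Adipocyte markers were higher as well in both tumours of this day, which summed to 2450 and 2319, against 14.2 to 53.3 in the controls, and their part in the result was not tested.

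By day 27 no gene passed, and 3 had an unadjusted p under 0.05, *Usp18*, *Oasl1* and *Oas2*. *Oasl1* was at 15.8, 19.2, 18.6 and 20.2, just above its highest control of 14.7, and was the 1 gene without overlap (7.33% of all genes were higher without overlap and 6.43% lower). Of the 168 values of day 27, 119 lay inside the range of the controls, 49 above it and 0 below. For 14 genes all 4 tumours lay inside. The changes were above 0 for 40 genes and below 0 for *Samhd1* (-0.13) and *Ifi205* (-0.24). Without control day 3 tumour 1, *Usp18* was called (adjusted p = 0.032). The leukocyte marker sum was 773 to 959 and the macrophage and monocyte sum 610 to 1121, both within the range of the controls, and so was the T cell sum (21.2 to 28.9).

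Consecutive days were compared directly, since calls on one day and not on the next do not test the difference. Between day 3 and day 6 the median change of the 42 genes was 0.12, but it was 0.88 without day 6 tumour 1 and -0.62 without day 6 tumour 2. Of the 42, 0 were called (10.9% of all genes were called higher and 7.34% lower), with 0 at an unadjusted p under 0.05. In 0 of the 42 did the days not overlap (29.3% of all genes higher and 33.2% lower). From day 6 to day 18 the median was -0.99 and 40 of the 42 changes were below 0, but again 0 were called (1.36% higher and 0.145% lower), with 3 at an unadjusted p under 0.05. Without overlap 0 were higher and 4 lower (30.3% and 18.4% of all genes). The median was -1.82 without day 6 tumour 1, -0.25 without day 6 tumour 2, -1.54 without day 18 tumour 1 and -0.42 without day 18 tumour 2. From day 18 to day 27 all 42 changes were below 0, with a median of -0.65 that became -0.08 without day 18 tumour 1 and -1.25 without day 18 tumour 2. Of these, 2 were called lower (6.86% of all genes, with 3.19% called higher), *Ifi205* (-3.09, SE 0.63, adjusted p = 0.013) and *Ifi27l2a* (-2.51, SE 0.59, adjusted p = 0.026). *Ifi27l2a* fell from 879 and 527 to between 102 and 138, with no overlap, and *Ifi205* from 117 and 50.5 to between 5.40 and 12.2. There were 14 genes lower without overlap (24.4% of all genes) and 0 higher (17.3%). With either tumour of day 18 left out fewer genes were called, among the 42 and among all genes. Without day 27 tumour 1, 2 or 4, 1 of the 42 was called. Of all genes 812 to 1065 were then called, against 1592 with every tumour kept. With the 4 tumours of day 27 averaged as 2 mice, 0 of the 42 were called under each of the 3 possible pairings. Of all genes 479 to 592 were called under these pairings.

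No gene was called between the controls of the 2 days, but single tumours set the direction of the median. Day 6 controls against day 3 controls gave a median of 0.03, 0 genes called (0% of all genes in either direction), 0 at an unadjusted p under 0.05 and 0 without overlap (16.8% of all genes higher and 15.2% lower). The median was 0.78 and -0.82 without day 3 control tumours 1 and 2, and -0.49 and 0.54 without day 6 control tumours 1 and 2. The day 6 effect minus the day 3 effect, each against its own controls, had a median of 0.01 and 0 genes called (6.06% of all genes higher and 2.43% lower), with 0 at an unadjusted p under 0.05. Its median was -0.74 and 0.85 without day 3 control tumours 1 and 2, 0.66 and -0.48 without day 6 control tumours 1 and 2, 0.76 and -0.70 without treated day 6 tumours 1 and 2, and 0.02 and 0.04 without treated day 3 tumours 1 and 2. The difference was lowest for *Samhd1* (-0.63, SE 0.67) and highest for *Cmpk2* (1.03, SE 1.12).

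The rest of the pathway was measured with lists drawn up for it. Of 21 interferon genes, *Ifng* was the 1 tested. *Ifng*, encoding interferon-gamma, was at 0.294 to 1.34 in the controls, 5.87 and 7.80 at day 3, 1.71 and 13.4 at day 6, 2.07 and 0.387 at day 18, and 0.0937 to 0.650 at day 27. It changed by 2.29 at day 3 (SE 0.55, adjusted p = 0.0061). *Ifnb1*, encoding interferon-beta, stayed at or under 0.951 in every tumour and was listed at 0 in 3, below the level for testing. The other 19 interferon genes were looked for by symbol and not found in the expression table, so their levels are unknown.

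Receptor and signalling genes rose at day 3: 10 of 10 tested were called higher, with a median of 1.02. *Ifnar1* changed by 0.78 (adjusted p = 0.00064), *Ifnar2* by 1.30 (adjusted p = 0.00038), *Tyk2* by 0.99 (adjusted p = 0.0004) and *Jak1* by 0.36 (adjusted p = 0.026). At day 6 these 4 had changes of 0.29, 0.61, 0.12 and 0.16 (adjusted p from 0.067 to 0.68), and the median of the list was 0.45. Day 6 set against day 3 gave a median of -0.65, and 5 of the 10 were called lower, *Ifnar1* (-0.49), *Ifnar2* (-0.69), *Ifngr2* (-0.62), *Tyk2* (-0.87) and *Stat3* (-0.59). *Ifngr2* encodes a chain of the interferon-gamma receptor, and *Stat3* a STAT protein that many cytokines activate. At days 18 and 27, 0 genes of the list were called. Of 15 genes of upstream sensing, 13 were called higher at day 3. At day 6 5 were called higher and 1 lower, the adaptor *Mavs* (-0.39, adjusted p = 0.04). *Mavs* was also the 1 called at day 27 (-0.33, adjusted p = 0.028). The negative regulators split at day 3, with 5 of 10 higher, among them *Socs1* (1.41, adjusted p = 0.0072) and *Ptpn6* (3.17, adjusted p = 0.00058), a phosphatase of blood cells, and 2 lower, *Ptpn11* (-0.37, adjusted p = 0.0059) and *Irf2bp1* (-0.44, adjusted p = 0.031).

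A further list of 28 induced genes outside the 42 had 25 called higher at day 3, 22 at day 6, 1 at day 18 and 0 at day 27. Its median changes were 1.60, 1.70, 0.79 and 0.22. The 16 genes chosen for interferon-gamma had 15, 12, 0 and 0 called higher, with medians of 2.55, 1.99, 0.56 and -0.03. *Cxcl9*, a chemokine of that list, changed by 3.78 at day 3 (SE 0.64, adjusted p = 0.00098) and was at 15.3 to 24.3 in day 18 tumour 2 and all of day 27, below each of the 4 controls except the lowest (22.9). In day 18 tumour 1 the mean of the interferon-gamma list was 0.98 above the controls and the mean of the 42 genes 1.98 above. In day 18 tumour 2 the means were 0.02 and 0.87 above. Plasmacytoid dendritic cells are known as strong producers of type I interferon, and of their 8 markers 6 were called higher at day 3. *Siglech*, a surface receptor of these cells, was at 0.266 to 1.27 in the controls and at 4.35 and 7.85 at day 3. *Tcf4*, which other cells also use, was at 86.3 to 115 in the controls and at 72.9 and 62.5 at day 3.

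**Figure D5:**
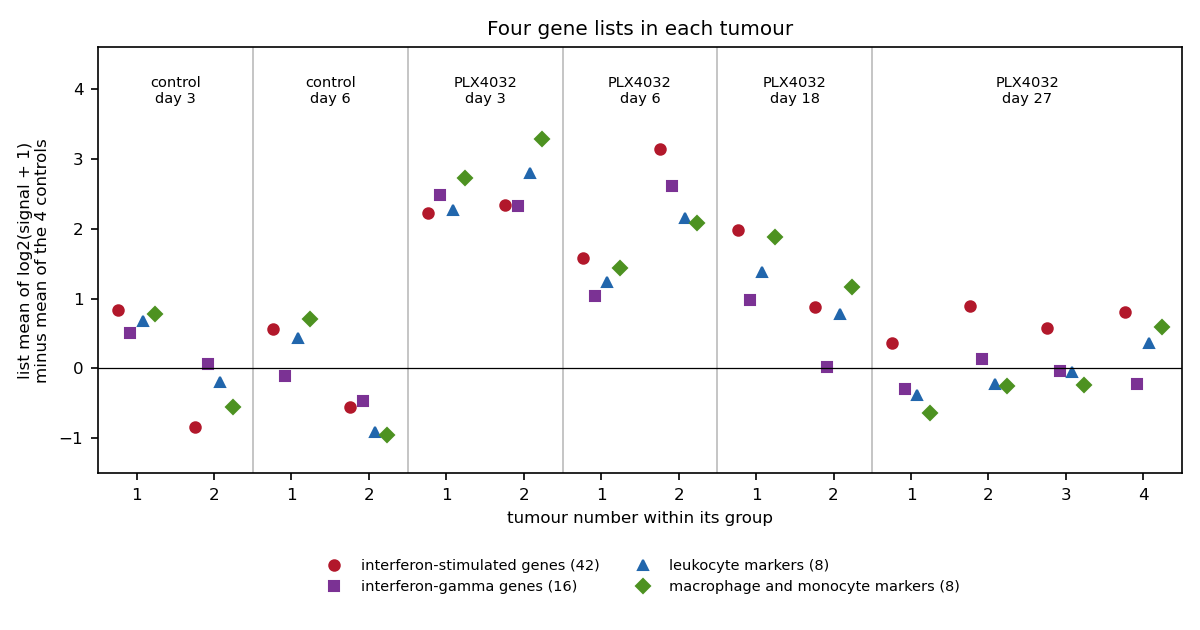
List means of log2(signal + 1), minus the mean of the 4 controls, in each of the 14 tumours, for the 42 interferon-stimulated genes, 16 interferon-gamma genes, 8 leukocyte markers and 8 macrophage and monocyte markers. At day 3 the 4 list means lie between 2.23 and 2.73 in tumour 1 and between 2.32 and 3.28 in tumour 2. In day 6 tumour 2 the mean of the 42 genes is 3.15, and the other list means lie between 2.09 and 2.60. The means of the 42 genes and of the macrophage and monocyte markers are 0.89 and -0.24 in day 27 tumour 2. In day 27 tumour 4 they are 0.80 and 0.59.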

How the data were processed

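RNA of 14 whole tumours was measured. The signal values come from a single table of all tumours deposited by the authors under the name TPM. Its column totals differ, and in 5 of 14 columns exceed what TPM sums to, so the values were treated as a rescaled signal. Per the submitters' processing notes kallisto and sleuth were used with mm10, with versions and strand use not given in the sources used here. Read depth is unknown, and precision rests on the spread between tumours. The unused per-sample columns number 0. Column names give the group but not the animal, so p-values measure only the spread between these tumours, which may be partly technical. The labels give the same animal number to a day 6 control and a day 3 treated tumour.

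Genes with a signal of at least 1 in at least 2 tumours were tested as log2(signal + 1) with limma 3.58.1 in R 4.3.3, on 6 group means with a variance trend, 2-sided. The test had been planned for TPM and was kept. A change on this scale understates the fold of low genes. The steps were tested on simulated data with known changes. Members, lists and named genes were chosen with earlier results of these data known. Values in every tumour are given for the 2 members of each role with the highest mean and for 11 listed genes, and the 3 largest changes in each direction may be named. Other genes come from fixed pathway and marker lists. The values of a gene of the signalling list are not reported here. Promoters are RefSeq's, and 31-base stretches were counted in GENCODE M21 transcripts. Alternatives were pseudocounts of 0.1 and 5, filters at 5 and above 0, median-of-ratios and quantile scaling, no variance trend, a fit on the compared groups only, controls of the same day, averaged pairs of day 27, and leaving out each tumour.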

Additional observations from a re-analysis of the deposited data

How the results depend on the processing

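At day 3 all 42 interferon-stimulated genes kept a positive change under every alternative run, and leaving out each tumour in turn gave 22 to 42 calls. At day 6 the median ran from 1.66 to 3.19 with each tumour left out. The count of the 42 genes called was 0 with the compared groups only, where 0% of all genes were called higher. It was also 0 with the controls of day 6 only, where 0.0505% of all genes were called higher. At day 18 it was 2 with a pseudocount of 0.1, with the filter at any value above 0 and with no variance trend. It was also 2 with median-of-ratios rescaling and with quantile normalisation. In these settings 4.38% to 5.05% of all genes were called higher. With each tumour left out the day 18 median ran from 0.80 to 1.94. The count was 0 with the compared groups only, where 0.877% of all genes were called higher. At day 27 against the controls it was 0 with each tumour of day 27 left out, where 1.86% to 2.39% of all genes were called higher. From day 18 to day 27 it was 5, all lower, with the compared groups only. Of all genes 2177 were called in that fit, 28.8% of them higher. The count among the 42 was 0 under each of the 3 pairings of day 27, with 479 to 592 of all genes called. With each tumour of day 27 left out it was 1 to 2, with 812 to 1919 of all genes called. The cause of these shifts was not tested. The day 6 against day 3, day 18 against day 6, control and own-day comparisons gave 0 calls under every alternative run.

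At day 27 the changes of 6 genes, none of them called, crossed 0. Without control day 3 tumour 1, *Samhd1* was 0.071 and *Ifi205* 0.023, and without control day 6 tumour 1 they were 0.089 and 0.21. With each tumour left out they ran from -0.35 to 0.089 and from -0.70 to 0.21. The other 4 crossed 0 without control day 3 tumour 2, and ran from -0.093 to 0.36 (*Parp9*), -0.011 to 0.92 (*Dhx58*), -0.053 to 0.46 (*Irf9*) and -0.025 to 0.46 (*Ifi35*). Quantile normalisation moved the day 3 median of all genes from 0.02 to -0.15. The share of all called genes that were higher went with it from 54.4% to 38.9% at day 3, from 75.9% to 60.4% at day 6, from 68.4% to 44.9% at day 18 (56.4% with median-of-ratios rescaling) and from 31.7% to 59.1% from day 18 to day 27 (42.6% with median-of-ratios rescaling). The member medians under these 2 scalings were 2.19 and 2.23 at day 3. No paired analysis was possible because the columns carry no animal numbers. Depth is unknown, so no limit from counting can be given.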
